A study of Homo sapiens with 6 samples.

Results

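The lysyl oxidase family comprised 5 genes, *LOX*, *LOXL1*, *LOXL2*, *LOXL3* and *LOXL4*, which were taken by symbol from the 60663 genes of the count table and were all expressed highly enough to be tested. They were followed in CCD18Co cells, a line of fibroblasts from normal human colon, after silencing of *LTBP2*, which encodes a secreted glycoprotein of the fibrillin and latent TGF-β binding protein family. All cells were grown in medium with 10% serum, exposed for 6 h to a lipid transfection reagent with siRNA, and collected at 48 h for total RNA sequencing. The siNT group (3 libraries) received a pool of non-targeting siRNA and the siLTBP2 group (3 libraries) siRNA against *LTBP2*. A single cell line was used, and no untransfected cells entered the comparison. Libraries are written siNT-1 to siNT-3 and siLTBP2-1 to siLTBP2-3, after the replicate numbers in the labels. The question was which lysyl oxidase transcripts differed once *LTBP2* was silenced.

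Lysyl oxidases are secreted, copper-dependent amine oxidases that carry a quinone cofactor made from their own side chains. They oxidise lysine and hydroxylysine residues of collagens and elastin to reactive aldehydes, which then condense into the covalent crosslinks that stiffen collagen fibrils and elastic fibres. *LOX* and *LOXL1* encode members with a propeptide that is removed outside the cell by proteinases of the BMP1 type, whereas *LOXL2*, *LOXL3* and *LOXL4* encode members with scavenger receptor domains ahead of the catalytic domain. Fibroblasts are a main source of these enzymes in fibrotic tissue and tumour stroma.

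The silenced gene was measured first. *LTBP2* (ENSG00000119681) stood at 24.97, 23.1 and 21.2 CPM (counts scaled to library size with TMM factors) in the siNT libraries and at 6.49, 8.61 and 6.00 CPM in the siLTBP2 libraries. It was thus reduced to 30.4% of its siNT level (log2 fold change -1.72 ± 0.15 (SE), adjusted p = 6.6e-05), and the groups did not overlap. Each library held between 44663424 and 53576899 counts on genes. The 12 fibroblast markers were all expressed and summed to between 12880 and 18413 CPM. Of the other markers, *PTPRC* (leukocytes), *EPCAM* and *CDH1* (epithelium) and *MYH11* and *DES* (smooth muscle) had between 0 and 8 counts in any library, but *TAGLN*, *SMTN* and *ACTG2* of the smooth muscle list and *KRT18* of the epithelial list were expressed and higher in siLTBP2 cells. Labels do not say whether the libraries of a group came from separate cultures, so p-values measure the spread between these libraries, which may be technical.

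*LOX* and *LOXL1* rose in siLTBP2 cells, and no member fell. *LOX* increased 2.27-fold and *LOXL1* 1.31-fold, whereas *LOXL2*, *LOXL3* and *LOXL4* did not pass the test. Of the 16920 genes tested, 9.76% were higher and 9.51% lower at an adjusted p below 0.05 in edgeR's quasi-likelihood test, against 2 and 0 of the 5 members. The study's thresholds for a deregulated gene (adjusted p below 0.01 and fold change above 2) were applied to the same test. The study itself took its p-values from a likelihood ratio test. With these thresholds 1 member was called, *LOX*, beside 1.29% of all genes in the higher direction. All 3 siLTBP2 libraries lay above all 3 siNT libraries for 3 of 5 members (*LOX*, *LOXL1* and *LOXL4*), against 18.7% of all genes. The median log2 fold change was 0.39 over the members and -0.01 over all genes tested. In bulk RNA, a change in the number of expressing cells and a change in RNA per cell cannot be told apart.

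**Figure D1:**
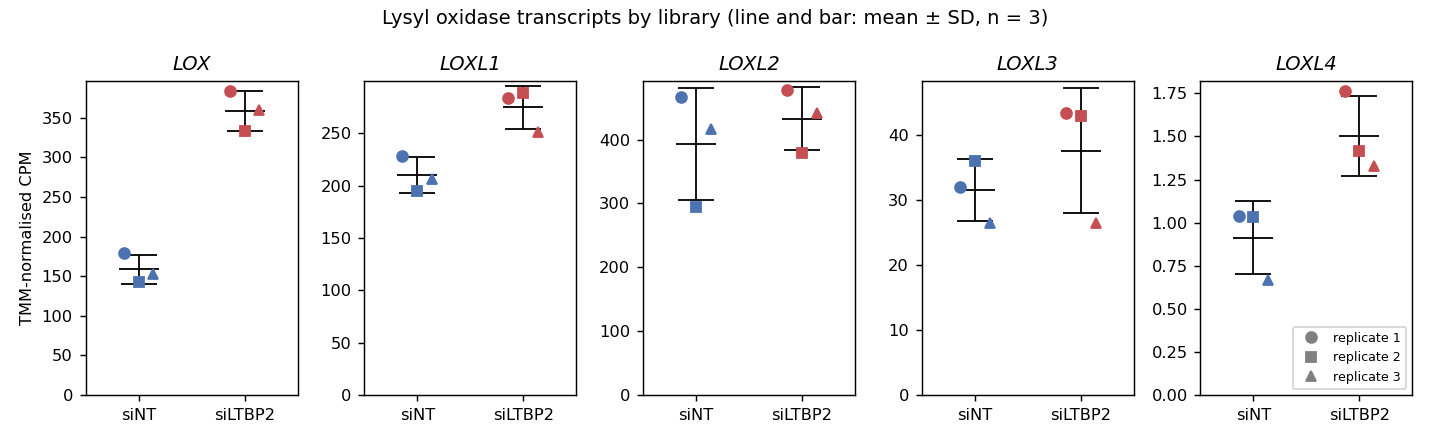
Level of each lysyl oxidase transcript (TMM-normalised CPM, vertical axis starting at 0 and scaled per gene) in the siNT and siLTBP2 libraries. Points are libraries, with the marker shape giving the replicate number, and lines and bars are mean ± SD (n = 3). The siLTBP2 points of *LOX* lie between 333 and 384 CPM, all above the siNT points, and those of *LOXL2* and *LOXL3* overlap with siNT.

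*LOX* (ENSG00000113083), the founding member of the family, lies on the minus strand of chromosome 5 (GRCh38, 122063195 to 122078413) and has 7 exons in its canonical transcript. It was at 179, 143 and 153 CPM in the siNT libraries and at 384, 333 and 359.9 CPM in the siLTBP2 libraries. The lowest siLTBP2 library was therefore well above the highest siNT library. The mean went from 158 ± 18.7 to 359 ± 25.2 CPM (SD, n = 3 each), with a log2 fold change of 1.18 ± 0.11 (SE; 95% interval of the fold change 1.93 to 2.66, adjusted p = 7.62e-05). By p-value it ranked 71st of the genes tested. Leaving out 1 library at a time kept its log2 fold change between 1.11 and 1.27, with an adjusted p of at most 0.00114.

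*LOX* was the member with the largest change. The reference sequence ahead of the most upstream of its 3 RefSeq start sites was therefore read for letters of known regulatory elements. The window from 250 bases before to 50 bases after that start (RefSeq, GRCh38.p14, chromosome 5, minus strand) held the letters ACGTG, the core of the hypoxia response element, 4 times on either strand. At least 1 copy was found in 21.4% of all 35116 promoter windows and at least 4 copies in 0.843%. The sites are given 5′ to 3′ along the gene with 10 bases on each side, with ACGTG or its reverse complement CACGT in capitals, and they begin 185, 116, 98 and 42 bases before the start.
LOX site 1, chr5:122078430-122078454: tccctgtgcaACGTGtctgggggga
LOX site 2, chr5:122078361-122078385: gtccgccttgCACGTttccaatcgc
LOX site 3, chr5:122078343-122078367: caatcgcattACGTGaacaaatagc
LOX site 4, chr5:122078287-122078311: aactttgcaaACGTGccagaaagtt
Sites 2 to 4 fall inside the gene as annotated in GENCODE 44, where a transcript starts further upstream. The same window held the SMAD box letters CAGAC 2 times (at least 2 copies in 13.1% of all windows) and neither CATTCC, bound by TEAD factors, nor the TATA box TATAAA (at least 1 copy in 14.03% and 11.5% of windows). The other 2 *LOX* windows, at starts inside the gene, held ACGTG 1 time each. The window of *LOXL1* held CAGAC 1 time (45.3% of all windows had at least 1 copy) and no ACGTG, the windows of *LOXL3* held no ACGTG, with 2 copies of CATTCC in 1 of them (at least 2 copies in 1.37% of all windows), and the window of *LOXL4* held none of the 4 motifs. The sequence of *LOXL2* was not analysed here. These are matches of letters in the reference and no measurement of binding.

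*LOXL1* (ENSG00000129038), whose product is tied to elastic fibre formation, lies on the plus strand of chromosome 15 (GRCh38, 73925989 to 73952137). It was at 229, 195 and 206 CPM in siNT and at 284, 289 and 252 CPM in siLTBP2 libraries. The groups were separate, but the gap between the lowest siLTBP2 and the highest siNT library was narrow. The mean went from 210.0 ± 17.1 to 275 ± 20.2 CPM, a log2 fold change of 0.39 ± 0.10 (SE; fold 1.13 to 1.51, adjusted p = 0.0174). Fits without 1 library passed fewer of all genes (2158 to 2781, against 3261 with all libraries). In them the log2 fold change of *LOXL1* stayed between 0.34 and 0.45, but its call was not always kept. The call was lost without siNT-2 (log2 fold change 0.34, adjusted p = 0.0561), without siNT-3 (0.38, adjusted p = 0.0581), without siLTBP2-1 (0.36, adjusted p = 0.0602) and without siLTBP2-2 (0.34, adjusted p = 0.0876).

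Of the members with scavenger receptor domains, *LOXL2* (ENSG00000134013; chromosome 8, 23296897 to 23425328, minus strand, 14 exons) was the most abundant. It was at 467, 295 and 417 CPM in siNT and at 477, 379 and 442 CPM in siLTBP2 libraries, so that the groups overlapped, and the libraries numbered 2 were the lowest of both groups. The log2 fold change was 0.14 ± 0.16 (SE), and the 95% interval of the fold change ran from 0.868 to 1.40 (adjusted p = 0.588). Without siNT-2 the log2 fold change was -0.03, and its sign therefore depended on 1 library.

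*LOXL3* (ENSG00000115318; chromosome 2, 74532258 to 74555690, minus strand, 14 exons) stood at 31.98, 36.0 and 26.5 CPM in siNT and at 43.3, 42.9 and 26.4 CPM in siLTBP2 libraries. The libraries numbered 3 were the lowest of both groups and nearly equal to each other, while the other siLTBP2 libraries exceeded all siNT libraries. Its log2 fold change was 0.25 ± 0.18 (SE; -0.15 to 0.65, adjusted p = 0.374). Without siLTBP2-3 it reached 0.46 with an adjusted p of 0.0233.

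*LOXL4* (ENSG00000138131; chromosome 10, 98247690 to 98268194, minus strand, 15 exons) was the rarest member, with 48, 51 and 36 counts in siNT and 77, 67 and 70 counts in siLTBP2 libraries. After scaling these were 1.04, 1.03 and 0.668 CPM against 1.77, 1.42 and 1.33 CPM, and the groups did not overlap. Its log2 fold change, 0.72 ± 0.25 (SE; fold 1.13 to 2.40), was the second largest of the family but did not pass the test (adjusted p = 0.0653). In a likelihood ratio test on the same counts *LOXL4* passed at an adjusted p below 0.05 (log2 fold change 0.72, adjusted p = 0.0322). It met neither of the study's thresholds for a deregulated gene in that test.

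**Figure D2:**
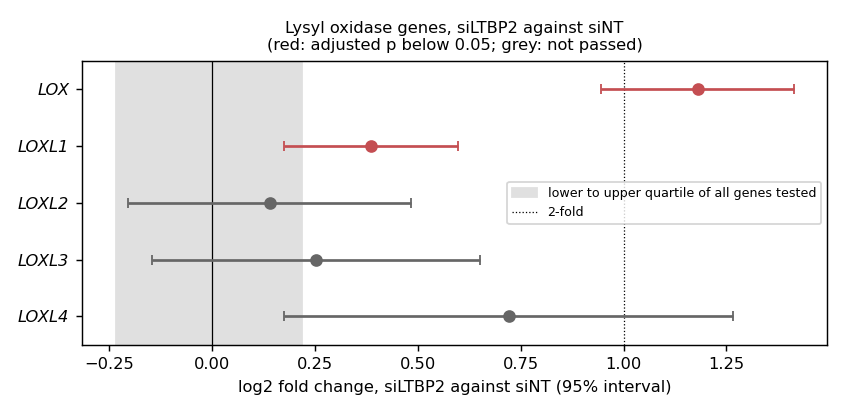
Log2 fold change of each lysyl oxidase gene, siLTBP2 against siNT, with its 95% interval from edgeR (horizontal axis). The shaded band runs from the lower to the upper quartile of all genes tested (-0.23 to 0.22) and the dotted line marks a 2-fold increase. The intervals of *LOX*, *LOXL1* and *LOXL4* lie above 0, those of *LOXL2* and *LOXL3* include it, and only the point of *LOX* passes the 2-fold line.

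To compare levels between members, CPM were divided by the length of all annotated exons in kilobases. In siNT cells *LOXL2* (65.6 ± 14.7 CPM per kb) and *LOXL1* (57.7 ± 4.71) led and overlapped, followed by *LOX* (28.3 ± 3.34), *LOXL3* (6.97 ± 1.06) and *LOXL4* (0.254 ± 0.059), each of the latter separated from the one before it in all 3 libraries. In siLTBP2 cells *LOXL1* (75.5 ± 5.55 CPM per kb) and *LOXL2* (72.3 ± 8.29) again overlapped, and *LOX* reached 64.2 ± 4.51 and overlapped with the range of *LOXL2*, although it was below *LOXL2* within each library. *LOXL3* (8.31 ± 2.14) and *LOXL4* (0.418 ± 0.064) remained last and separate. The overlap of *LOX* with *LOXL2* depended on the length used, since with the canonical transcript alone, 5076 bases for *LOX* and 3721 for *LOXL2*, the ranges of these genes were separate (lowest *LOXL2* library 102 CPM per kb, highest *LOX* library 75.6).

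Expressed as a share of the family's summed CPM per kb, *LOX* went from 17.8%, 18.7% and 17.1% in the siNT libraries to 29.0%, 28.1% and 30.1% in the siLTBP2 libraries. *LOXL2* went the other way, from 43.2%, 36.0% and 43.6% to 33.7%, 29.9% and 34.6%, also without overlap. The share of *LOXL1* was 36.5% ± 2.35 in siNT and 34.3% ± 2.73 in siLTBP2 cells, and those of *LOXL3* (4.47% and 3.75%) and *LOXL4* (0.162% and 0.189%) overlapped between groups as well. The summed level of the family went from 159 ± 21.7 to 221 ± 13.6 CPM per kb, with no overlap (exact permutation p = 0.1, two-sided, the smallest that 3 against 3 libraries allow). A share falls when another member rises, and *LOXL2* itself did not pass the test.

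**Figure D3:**
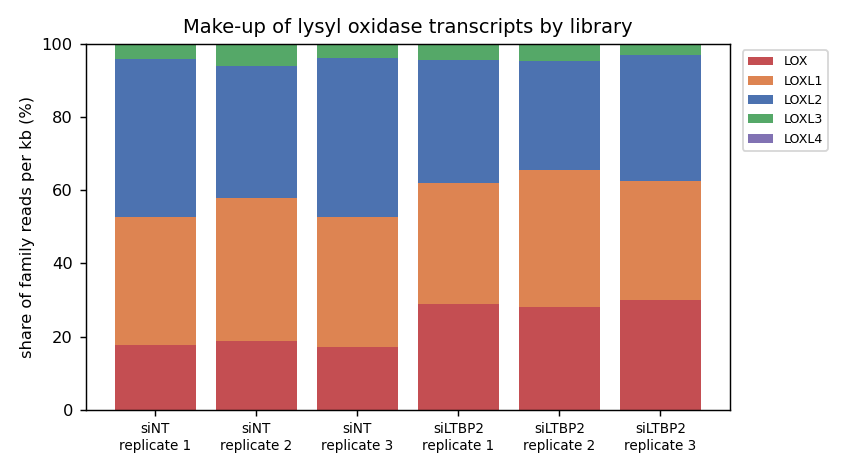
Share of each member in the summed CPM per kb of the lysyl oxidase family (vertical axis, percent) in each of the 6 libraries. The *LOX* segment takes 17.1% to 18.7% in siNT and 28.1% to 30.1% in siLTBP2 libraries, and the *LOXL4* segment, below 1% in every library, is too thin to see.

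Ratios within a library, which do not depend on the scaling between libraries, tested whether *LOX* moved by another amount than the rest of the family. The log2 ratio of *LOX* to *LOXL1* counts was -0.35, -0.45 and -0.43 in siNT and 0.43, 0.21 and 0.52 in siLTBP2 libraries. *LOX* thus went from fewer counts than *LOXL1* in all 3 siNT libraries to more in all 3 siLTBP2 libraries, a shift of 0.80. The log2 ratio of *LOX* to *LOXL2* shifted by 1.02, from -1.38, -1.04 and -1.45 to -0.31, -0.19 and -0.30. For *LOXL3* the shift was 0.95 (2.34 to 3.29), again without overlap, and for *LOXL4* it was 0.45 (7.45 to 7.90) with overlapping groups. The first 3 ratios each gave the smallest exact permutation p that this design allows (0.1, two-sided; 0.133 after Benjamini-Hochberg adjustment over the 4 ratios), and the ratio to *LOXL4* gave p = 0.2 (exact permutation test, adjusted 0.2). With 3 against 3 libraries this permutation test cannot go below 0.1, so it says nothing beyond the order of the libraries.

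**Figure D4:**
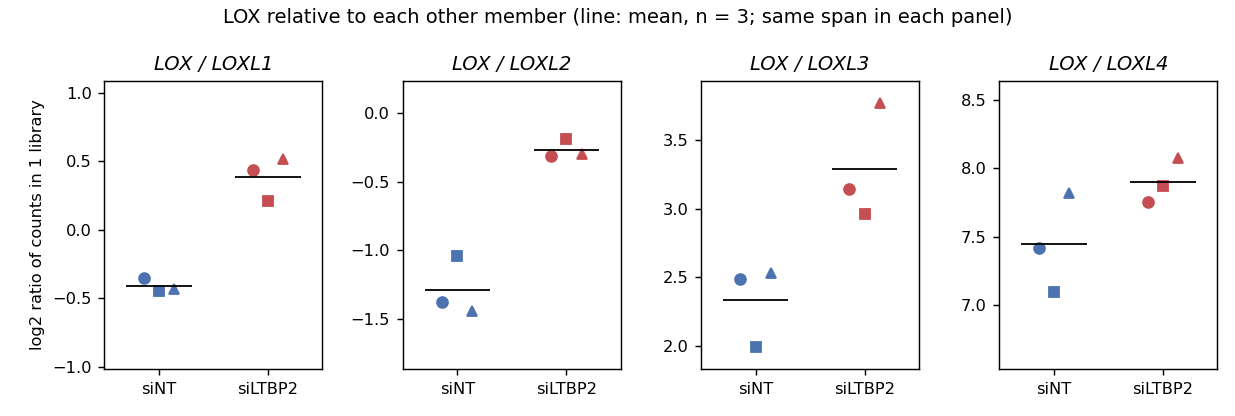
Log2 ratio of *LOX* counts to the counts of each other member within a library (vertical axis, the same span in each panel), for siNT and siLTBP2 libraries. Points are libraries, with marker shapes for replicate numbers as in the plot of levels, and lines are means (n = 3). The groups are apart for *LOXL1*, *LOXL2* and *LOXL3* and overlap for *LOXL4*.

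Several members overlap other genes, and whether reads were assigned by strand in the counting is not given in the sources used here. *LOXL3* shares 936 exon bases, 20.7% of its exon length, with *HTRA2* on the opposite strand, a mitochondrial serine protease, which rose from 30.8 ± 4.08 to 43.9 ± 1.57 CPM (log2 fold change 0.51, adjusted p = 0.00782). The values of *LOXL3* are uncertain to that extent. *LOXL1-AS1*, antisense to *LOXL1* over 335 bases (9.21% of its exon length), was at 22.5 CPM in both groups (log2 fold change 0.003, adjusted p = 0.989), a value whose sign changed under another scaling. *LOX* shares 138 bases (2.47%) with *SRFBP1* (0.34, adjusted p = 0.0619, or 0.0457 with the likelihood ratio test). *LOXL2* shares 178 bases (2.97%) with *LOXL2-AS1*, which was below 1 CPM in all libraries (log2 fold change -0.66, adjusted p = 0.193), and 120 bases with *ENTPD4* on its own strand (-0.16, adjusted p = 0.249). *DOK1*, over 216 bases of *LOXL3*, did not pass either (0.17, adjusted p = 0.362), and an unnamed antisense transcript over 152 bases of *LOXL4* (ENSG00000230928) was too low to be tested. Within 100000 bases of the 5 genes, *HTRA2* was the only neighbour of 25 tested that passed, beside 9.76% higher and 9.51% lower of all genes.

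The genes whose profile over the 6 libraries was most like that of each member were found from the root mean square difference of centred log2 CPM among 12981 genes with a mean of at least 1 CPM. For *LOX* these were *ADAM12*, a metalloproteinase of the cell surface (difference 0.0691; 4.59 to 10.3 CPM), *TRBV12-4*, a T cell receptor segment of a multigene family whose counts are uncertain (0.0743; 0.753 to 1.64 CPM), and *NRP1*, a coreceptor of semaphorins and VEGF (0.0908; 263 to 594 CPM). For *LOXL1* they were the potassium channel gene *KCNMA1* (0.0307), *RPAP1* (0.033) and the mannosidase gene *MAN2A1* (0.0395). *LOXL2* was nearest to *OGFRP1* (0.0488), *ZFPM1* (0.0518) and *TGFB1* (0.0581), the last at 342, 225 and 309 CPM in siNT and 385, 309.8 and 346 CPM in siLTBP2 libraries, with the same low libraries numbered 2. *LOXL3* was nearest to *ALPK1* (0.0439), *UCP2* (0.0489) and an unnamed gene (ENSG00000228801, 0.0523), all low in the libraries numbered 3. For *LOXL4* the nearest were ENSG00000254473 (0.034), *PIGAP1* (0.066) and *OTUB2* (0.0669), which were also rare transcripts. This likeness was ranked over the same 6 libraries for all genes and is a description.

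Among proteins that process or bind lysyl oxidases, 10 of 14 listed genes were tested, of which 2 rose and 2 fell (median log2 fold change -0.02). Over all genes tested, 9.76% were higher and 9.51% lower, and these shares apply to every later list as well. *BMP1*, which removes the propeptide of LOX, averaged 78.3 ± 10.1 CPM with siNT and 87.4 ± 8.73 CPM with siLTBP2 (log2 fold change 0.16, adjusted p = 0.357), and its enhancer *PCOLCE* at 452 ± 58.1 and 384 ± 99.1 CPM (-0.24, adjusted p = 0.384). The scaffold on which LOX is activated, fibronectin, did differ, as *FN1* rose from 1164 ± 137 to 1969 ± 152 CPM (0.76 ± 0.12 (SE), adjusted p = 0.00161). *EFEMP2* (fibulin-4), which brings LOX to tropoelastin, rose from 116 ± 4.57 to 159 ± 4.12 CPM (0.46, adjusted p = 0.0027), while *FBLN5* (fibulin-5), a partner of LOXL1, was at 13.9 ± 3.84 and 14.6 ± 3.68 CPM (0.07, adjusted p = 0.861), with a sign that depended on single libraries (-0.09 without siNT-3 and -0.14 without siLTBP2-1). *THBS1* (thrombospondin-1) fell by 1.32 on the log2 scale, from 5329 ± 700 to 2139 ± 91.5 CPM (adjusted p = 1.04e-04). The procollagen proteinase gene *ADAMTS14* also fell, from 3.83 to 1.59 CPM (-1.27, adjusted p = 0.0203), a call lost without siNT-1 (-1.01), siNT-2 (-1.20) or siLTBP2-2 (-1.24).

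Of the 15 genes of copper supply, all tested, 4 rose and none fell (median log2 fold change 0.11), beside 9.76% higher and 9.51% lower of all genes. The transporter that loads copper into secreted enzymes, *ATP7A*, averaged 69.4 ± 8.39 and 70.2 ± 2.96 CPM in the siNT and siLTBP2 groups (log2 fold change 0.02, adjusted p = 0.932; -0.02 with scaling by total counts), and the chaperone *ATOX1* at 29.3 ± 1.95 and 31.2 ± 0.857 CPM (0.09, adjusted p = 0.542). Those that rose included 2 metallothioneins, *MT1E* (68.2 ± 5.08 to 115 ± 6.56 CPM, 0.76, adjusted p = 2.99e-04) and *MT2A* (235 ± 44.2 to 388 ± 44.2 CPM, 0.72, adjusted p = 0.00509). Counts of metallothioneins are uncertain because the family holds near-identical genes. The others were the copper transporter genes *SLC31A2* (0.60, adjusted p = 0.0162) and *SLC31A1* (0.35, adjusted p = 0.0178). The call of *SLC31A2* was lost without siNT-1 (0.58) or siNT-2 (0.52), and that of *SLC31A1* without siNT-1 (0.32), siNT-2 (0.34) or siLTBP2-3 (0.29).

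Most collagen substrates of the family did not pass the test. Of 11 fibrillar collagen genes, 10 were tested, of which none rose and 1 fell (median log2 fold change 0.03). *COL1A1* was at 2278 ± 488 and 1958 ± 504 CPM (-0.22, adjusted p = 0.487), *COL1A2* at 1725 ± 427 and 2149 ± 689 CPM (0.32, adjusted p = 0.392) and *COL3A1* at 898 ± 198 and 693 ± 239 CPM (-0.37, adjusted p = 0.308), with overlapping groups for each. With no filter on low counts *COL1A2* (adjusted p = 0.041) and *COL3A1* (adjusted p = 0.00359) did pass. That quasi-likelihood fit tested 33596 genes and gave *LOX* an adjusted p of 6.93e-26, against 7.62e-05 with the filter. Its adjusted p-values therefore do not compare directly with the others here. *COL27A1* passed (-0.39, adjusted p = 0.0292), but not without siNT-1 (-0.40), siNT-2 (-0.33), siLTBP2-2 (-0.34) or siLTBP2-3 (-0.38). Among the collagen IV genes of basement membranes, substrates of LOXL2, 4 of 6 were tested and *COL4A1* rose from 178 ± 31.1 to 261 ± 45.6 CPM (0.55, adjusted p = 0.0267), a call lost without siNT-2 (0.42) or siLTBP2-1 (0.42). *ELN*, the gene of elastin, had at most 1 count in any library and was not tested.

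Elsewhere in the elastic fibre list 8 of 13 genes were tested, with 2 higher and 2 lower (median 0.06 on the log2 scale). *LTBP1*, which tethers latent TGF-β to fibrillin, rose from 139 ± 25.03 to 255 ± 37.7 CPM (0.87, adjusted p = 0.00202), and its relative *LTBP3* fell from 61.0 ± 7.70 to 32.4 ± 5.83 CPM (-0.92, adjusted p = 0.00141). *FBN1*, the gene of the microfibril protein fibrillin-1, rose from 683 ± 126 to 1073 ± 215 CPM (0.65, adjusted p = 0.0175), which no longer passed without siNT-2 (0.59), siNT-3 (0.56) or siLTBP2-1 (0.48). *LTBP4* fell (-0.58, adjusted p = 0.0465), but not past the threshold without siNT-1 (-0.55), siNT-2 (-0.49), siLTBP2-1 (-0.64) or siLTBP2-3 (-0.38), nor with all libraries under upper-quartile scaling (adjusted p = 0.0614) or a filter of 1 CPM in 3 libraries (adjusted p = 0.0551).

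Lysyl oxidases act on lysines that other enzymes hydroxylate first. Of 17 genes of collagen hydroxylation and folding 4 rose and 1 fell (median log2 fold change 0.15), beside 9.76% higher and 9.51% lower of all genes. *PLOD2*, the hydroxylase of telopeptide lysines from which the stable pyridinoline crosslinks form, was at 102, 117 and 130.4 CPM in siNT and at 184, 183 and 236 CPM in siLTBP2 libraries. The groups were clearly apart (0.78 ± 0.12 (SE), adjusted p = 0.00174, passed without any 1 library). The prolyl hydroxylases *P4HA1* (115 ± 3.51 to 149 ± 10.7 CPM, 0.37, adjusted p = 0.0118) and *P4HA2* (76.2 ± 6.81 to 96.2 ± 5.81 CPM, adjusted p = 0.0279) were higher by less. *P4HA3* passed at a mean below 1 CPM. *FKBP10*, a folding helper of lysyl hydroxylation, fell from 270 ± 10.8 to 205 ± 27.0 CPM (-0.40, adjusted p = 0.0244). Fits without 1 library did not always keep 3 of these calls, although each gene kept its direction. *P4HA1* no longer passed without siLTBP2-1 (0.31). *P4HA2* no longer passed without siNT-2 (0.26), siNT-3 (0.36), siLTBP2-1 (0.29) or siLTBP2-2 (0.37). *FKBP10* no longer passed without any 1 siNT library (-0.37, -0.41 and -0.41) or siLTBP2-3 (-0.29).

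Enzymes that crosslink matrix by other chemistry, 5 of 9 tested, included 1 higher and 1 lower gene. The transglutaminase gene *TGM2*, whose product joins glutamine to lysine, fell from 516 ± 131 to 266 ± 95.1 CPM (log2 fold change -0.95, adjusted p = 0.0248), a call lost without siNT-1 (-0.90) or siNT-2 (-0.80). *QSOX1*, a secreted sulfhydryl oxidase, rose from 295 ± 26.6 to 404 ± 52.9 CPM (0.46, adjusted p = 0.0189), which was lost without siNT-2 (0.40), siNT-3 (0.44), siLTBP2-1 (0.43) or siLTBP2-2 (0.37). Among 6 other amine oxidases tested of 8, the spermine oxidase gene *SMOX* rose from 21.1 ± 2.13 to 29.0 ± 1.69 CPM (0.46, adjusted p = 0.012), and *MAOA* was lower at a mean below 1 CPM. Of the copper amine oxidases in these lists and the family, *LOX* and *LOXL1* were the only ones that passed.

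**Figure D5:**
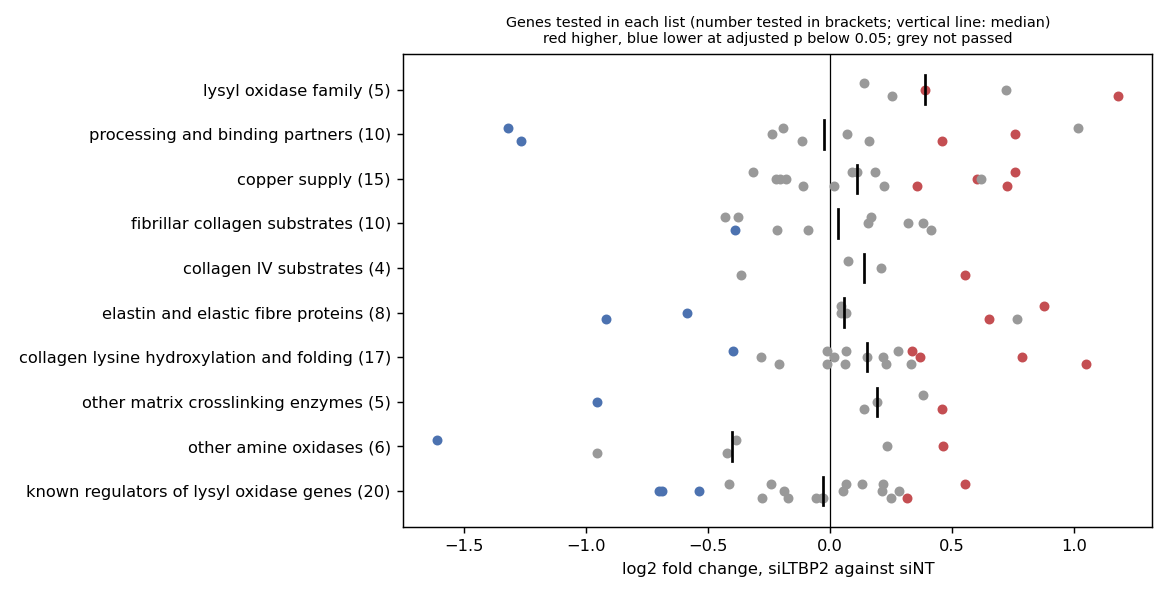
Log2 fold change, siLTBP2 against siNT, of every tested gene of the lysyl oxidase family and of the lists of partners, copper supply, substrates, other enzymes and regulators (horizontal axis). Each point is a gene, red where higher and blue where lower at an adjusted p below 0.05 and grey otherwise, and the vertical line is the median of the list. The median of the family is 0.39, and the other medians lie between -0.40 and 0.19.

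Of 20 known regulators of lysyl oxidase genes, all tested, 2 rose and 3 fell (median log2 fold change -0.03), beside 9.76% higher and 9.51% lower of all genes. The hypoxia factors, whose core motif stands in the *LOX* sequences above, differed in direction. *EPAS1* (HIF-2α) fell from 922 ± 62.8 to 567 ± 49.2 CPM (-0.70, adjusted p = 0.00114), and *HIF1A* rose from 299 ± 15.4 to 371 ± 20.9 CPM (0.31, adjusted p = 0.0315), but its call was lost without any 1 of the 6 libraries (0.27 to 0.35, adjusted p between 0.0551 and 0.0928). *SMAD3*, a transducer of TGF-β signals, fell from 342 ± 33.1 to 236 ± 9.07 CPM (-0.54, adjusted p = 0.00314), while *YAP1*, the mechanosensitive coactivator of TEAD factors, rose from 209 ± 16.6 to 306 ± 17.7 CPM (0.55, adjusted p = 0.00241). *TGFB2* fell from 7.997 ± 1.67 to 4.95 ± 1.10 CPM (-0.69, adjusted p = 0.0349), a call lost without siNT-1 (-0.55), siNT-2 (-0.66), siLTBP2-1 (-0.64) or siLTBP2-2 (-0.57). These are levels of mRNA and not of factor activity, and their part in the change of *LOX* was not tested.

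Some marker genes of other cell types moved with the groups as *LOX* did, beside 9.76% higher and 9.51% lower of all genes tested. Of the 7 smooth muscle markers 4 were tested and 3 rose, *TAGLN* (84.3 ± 8.26 to 188 ± 51.7 CPM, log2 fold change 1.15, adjusted p = 0.00104), *SMTN* (0.79) and *ACTG2* (0.57), and the list summed to between 375 and 395 CPM in siNT and between 616 and 726 CPM in siLTBP2 libraries. Of 8 epithelial markers 2 were tested and *KRT18* rose from 36.4 ± 6.19 to 80.8 ± 7.66 CPM (1.15, adjusted p = 2.37e-04), with list sums of 40.3 to 52.8 and 85.9 to 99.4 CPM, although *EPCAM* and *CDH1* had at most 2 counts in any library. None of the 2 endothelial markers tested of 6 (*TEK* and *VWF*, list sums 67.5 to 83.6 and 59.9 to 74.3 CPM) passed. Nor did the 1 immune marker tested of 7 (list sums 0.167 to 0.541 and 0.247 to 0.656 CPM), *ACTA2* or *KRT8*. Among the 12 fibroblast markers *PDGFRB* fell (-0.60, adjusted p = 0.00252) and the other 11 did not pass. The part of these shifts in the lysyl oxidase results was not tested.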

How the data were processed

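Total RNA of 6 libraries of CCD18Co fibroblasts, 3 siNT and 3 siLTBP2 as the labels group them, was analysed. The authors prepared stranded, ribosomal RNA depleted libraries, aligned reads to GRCh38 with STAR 2.7.1a and deposited raw gene counts made with HTSeq 0.11.2 (versions from the submitters' processing notes). Neither the Ensembl release nor the strand setting is stated in the paper or labels. Of the 60663 gene identifiers, 60462 were found in GENCODE 44, from which exons and lengths were taken. Libraries held 44663424 to 53576899 counts, which limits precision for rare genes such as *LOXL4*, and replicates differed by more than counting noise (chi-square per degree of freedom 24.6 to 48.1).

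Low counts were removed with filterByExpr, and the groups were compared without a block by the two-sided quasi-likelihood test of edgeR 4.0.16 (R 4.3.3, TMM scaling), with Benjamini-Hochberg adjustment over 16920 genes. Genes passed at an adjusted p below 0.05. Each standard error was obtained from the log2 fold change and its F statistic. Fold changes are ratios of mean CPM. Ratios used counts with 0.5 added. The study used the likelihood ratio test, run here as an alternative beside RLE, upper-quartile and total-count scaling, other filters, DESeq2 1.42.0, a replicate block and leaving out each library.

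The members and gene lists were chosen with earlier results of these data known. Named genes were the members, *LTBP2*, genes overlapping a member, list genes that passed with a mean of at least 1 CPM (at most 4 per direction and list), 12 genes named whatever their result, and the 3 genes of most like profile per member. *P4HA3*, *MAOA*, *TEK*, *VWF*, *ACTA2*, *KRT8* and marker genes at or near 0 counts fall outside this rule and were named after their values were seen.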

Additional observations from a re-analysis of the deposited data

How the results depend on the processing

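*LOX* and the silencing of *LTBP2* kept their direction and passed in every alternative (another scaling, filter or test, a replicate block, or 1 library left out). *LOXL1* kept its direction and passed in each alternative with all libraries (highest adjusted p 0.0184, quasi-likelihood test with upper-quartile factors). It failed in 4 of 6 fits without 1 library (log2 fold change 0.34 to 0.45). *LOXL2* ranged from -0.029 to 0.28 in those fits, the negative value arising without siNT replicate 2, *LOXL3* from 0.14 to 0.46 and *LOXL4* from 0.54 to 0.82. *LOXL4* passed with the likelihood ratio test (0.72, adjusted p = 0.0322). Same-numbered libraries were not treated as pairs, because no label ties the numbers to a shared culture or day and not every correlation of their deviations was above 0.1 (0.298, 0.083 and 0.428). As a hint of pairing in the data, 5 of 6 libraries correlated best with their own number, while siNT replicate 2 correlated best with siLTBP2 replicate 1 (0.103). In a fit with a replicate block, 4 members passed, with *LOXL3* at 0.23 (adjusted p = 0.0303) and *LOXL4* at 0.73 (adjusted p = 0.012), 6131 instead of 3261 of all genes passed, and *COL1A1* (-0.23), *COL1A2* (0.29), *COL3A1* (-0.41), *PCOLCE* (-0.26) and *SRFBP1* (0.34) passed as well. Fits without 1 library called 1 to 3 members and 2158 (without siLTBP2 replicate 2) to 2781 genes. Deregulated genes by the quasi-likelihood test numbered 434, against 680 with no low-count filter and 308 to 405 without 1 library. The cause was not tested. No scaling, filter or other test turned the sign of a member. Values near 0 changed sign for *ATP7A* (-0.019 with total counts, -0.080 to 0.071 without 1 library), *FBLN5* (-0.14 to 0.30), *LOXL1-AS1* (-0.004 with upper-quartile factors, -0.036 with total counts, -0.009 with no filter, -0.066 to 0.068 without 1 library), *OGFRP1* (-0.016 to 0.25) and *ZFPM1* (-0.022 to 0.26). Depth limits *LOXL4*, with 36 to 77 counts per library, and *ELN*, with at most 1. A single cell line, unknown strand use in the counting and, for *LOXL3*, overlap with *HTRA2* limit the other values.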
